A study of Caenorhabditis elegans with 2 samples.

Results

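The genes described here are those that build autophagosomes, the subunits of the vacuolar proton pump (V-ATPase), and the aspartyl proteases with cathepsin L. They were taken by symbol from the Caenorhabditis elegans annotation: every protein-coding gene whose symbol begins atg-, lgg-, epg-, vha- or asp-, plus bec-1, unc-51, sqst-1 and cpl-1. That gave 64 of 19973 protein-coding genes, of which 26 are autophagy genes, 20 are V-ATPase genes and 18 are proteases. A symbol alone does not show that a protease acts in the lysosome, so the counts for proteases are not counts for lysosomal proteases. Binding of a GFP-tagged transcription factor at their promoters was read from ChIP-seq (sequencing of the DNA that is immunoprecipitated with a chromatin protein) of whole L3 larvae of mixed sex. All larvae were of strain OP355, which carries the mutation unc-119(tm4063) and the transgene wgIs355, and they form 1 group with 2 biological replicates. No untagged, untreated or other-stage group was analysed here, so the only comparison available is that of these genes with all genes in the same samples. The labels disagree on the tagged protein, since the antibody label names mdl-1 and a free-text line names eGFP-ZK337.2, so it is called the tagged factor here. For the transgene, its promoter and the cells that express it (not given in the sources used here) limit what a site can show, and binding in whole larvae is a sum over all tissues.

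Autophagy is the route by which cytoplasm, protein aggregates and organelles are wrapped in a double membrane, the autophagosome, and delivered to the lysosome for breakdown. The V-ATPase acidifies the lysosome with a soluble V1 sector that hydrolyses ATP and a V0 sector in the membrane that carries protons. Lysosomal proteases then digest the cargo. In worms as in mammals, the bHLH factor HLH-30 (TFEB in mammals) is known to act on many genes of this system through E-boxes with the sequence CACGTG. MDL-1, one of the proteins the labels name, belongs to the MAD branch of the MAX network of bHLH factors, which also bind E-boxes of this sequence.

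For each gene, called regions were taken whose summit (the base of highest signal) lay in a promoter window, which reached 1000 bp upstream and 200 bp into the gene from its annotated 5′ end. Regions came from 4 lists. The IDR list held 1015 regions that passed the authors' threshold on the irreproducible discovery rate, a measure of agreement between replicates, and these were the same regions as the 1015 with the highest signal in the pooled list. The pooled list held 30000 regions, and the lists of the replicates held 15898 for replicate 1 and 30000 for replicate 2. The pooled and replicate lists were deposited as input to IDR and hold background as well as peaks, and 3366 of the pooled regions had a −log10 q-value of 2 or more. A signal is the authors' own score for a region, without a stated scale, and is used here to rank regions within 1 list and never to compare lists. The 5000 highest pooled regions, which end at a signal of 11.3, served as an intermediate class.

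Of the 64 genes, 5 had an IDR summit in their window, beside 2.52% of all protein-coding genes. These were the autophagy genes lgg-1, lgg-2, atg-9 and epg-7, which make 4 of 26, and the V-ATPase gene vha-12, which makes 1 of 20. None of the 18 proteases had one. A summit of the 5000 highest pooled regions lay in the windows of 21 members, beside 10.2% of all genes. By subgroup these were 10 of 26 autophagy genes, 11 of 20 V-ATPase genes and 0 of 18 proteases. Against the whole pooled list, background included, the counts were 16 of 26, 15 of 20 and 7 of 18, beside 38.2% of all genes. The proteases were near the share of all genes in the whole list, with 1 region counted for both asp-6 and asp-12. They had none in its upper part, but 18 genes are few beside a share of 10.2%, so this 0 is not read as a lack. The median of the highest pooled signal in a window, with 0 for a gene with no region, was 7.48 for autophagy genes, 11.9 for V-ATPase genes and 0 for proteases, beside 0 for all genes. The genes were chosen by name with these data already known, and no test was made of these counts.

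**Figure D1:**
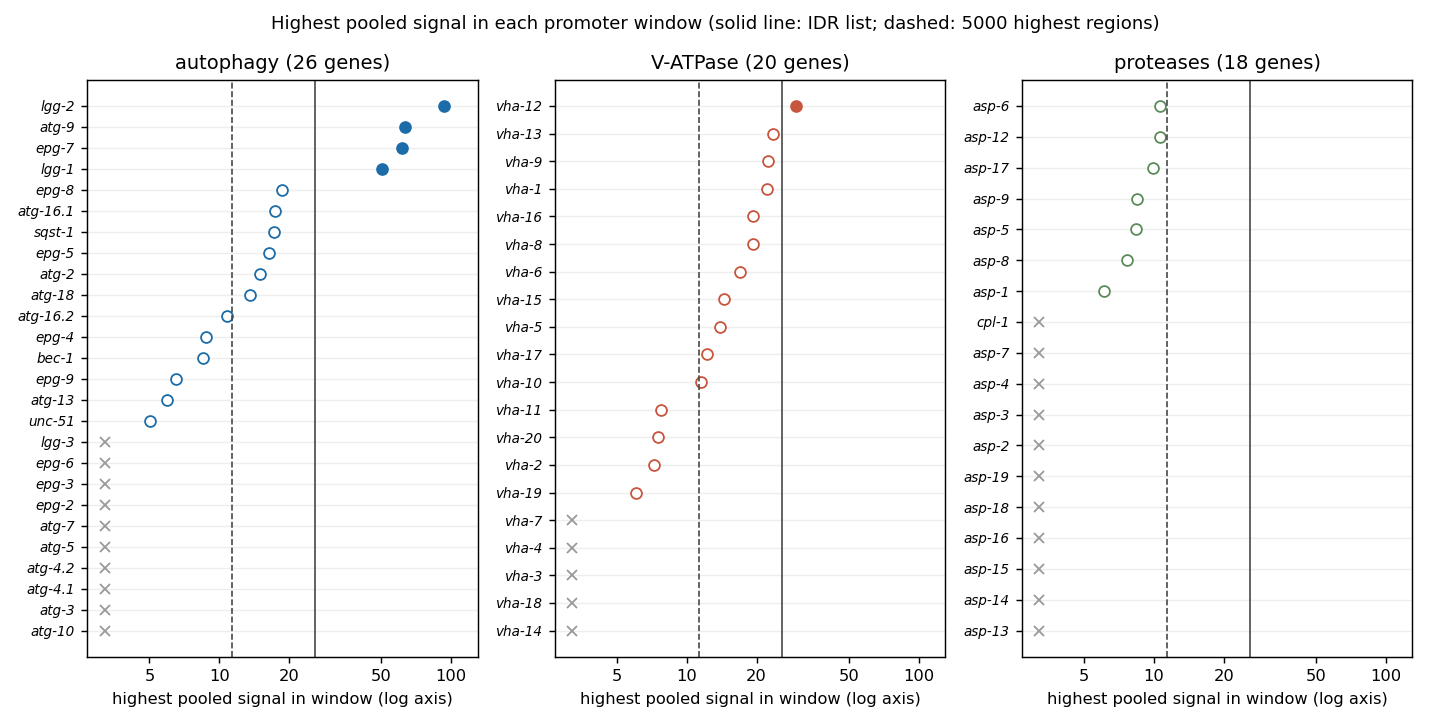
Highest pooled signal (log axis) among the called regions in the promoter window of each member, 1 row per gene and 1 panel per subgroup; filled points have an IDR summit, open points have a pooled summit only, and grey crosses at the left mark genes with no pooled summit. The solid line is the lowest signal of the IDR list and the dashed line the lowest among the 5000 highest pooled regions: 4 autophagy genes and vha-12 lie past the first line, and no protease lies past the second.

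**Figure D2:**
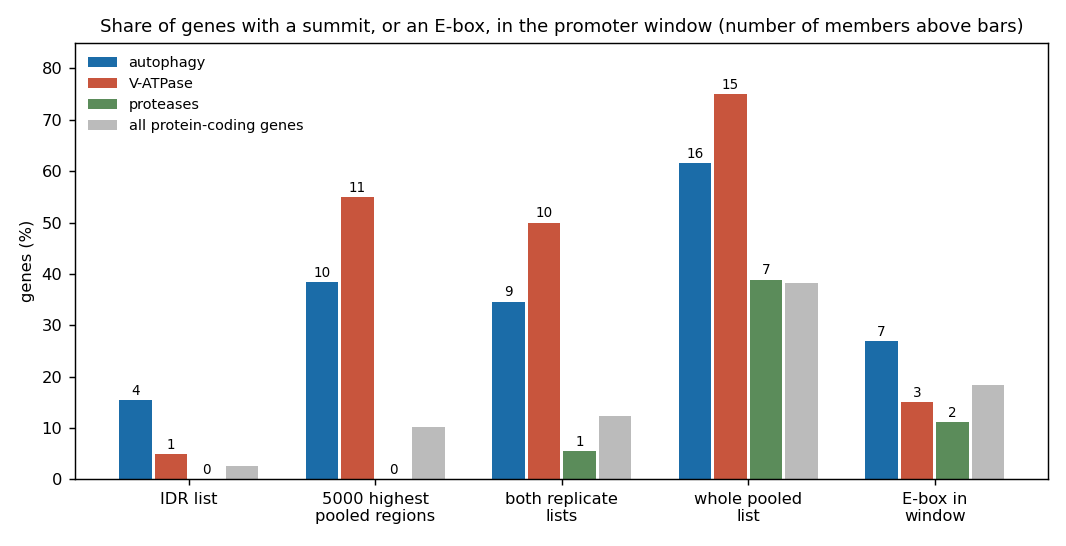
Share of genes (%) in each subgroup and among all 19973 protein-coding genes whose promoter window holds a summit of the list named under the bars, or an E-box; the number above a bar is the number of members it stands for. The 10 autophagy and 11 V-ATPase genes with a summit of the 5000 highest pooled regions stand beside 10.2% of all genes, and the proteases have none there.

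The sequence under the strongest sites is given first, since every later statement on motifs refers to it. Each line below is the 201 bases centred on the pooled summit, read from assembly WBcel235 (ce11) on the strand of the gene, 5′ to 3′. Capitals mark the motifs searched, each on both strands. They are the E-box CACGTG, its longer form TCACGTGA, the variant CACGCG (its reverse complement is CGCGTG), the repeat GAGAGA (its reverse complement is TCTCTC) and the word CTGCGTC. A hit of the longer E-box is also a hit of the short one, and overlapping hits of the repeat run together. The first 6 lines are all IDR regions in members' windows, epg-5 is shown for its E-box below the IDR threshold, and vha-15 because it shares CTGCGTC with vha-12. All 8 stretches are annotated as intergenic.
lgg-2: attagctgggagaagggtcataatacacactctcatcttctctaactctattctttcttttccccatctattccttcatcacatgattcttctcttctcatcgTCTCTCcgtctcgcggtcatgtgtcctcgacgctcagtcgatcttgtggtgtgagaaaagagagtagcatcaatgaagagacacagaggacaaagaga
atg-9: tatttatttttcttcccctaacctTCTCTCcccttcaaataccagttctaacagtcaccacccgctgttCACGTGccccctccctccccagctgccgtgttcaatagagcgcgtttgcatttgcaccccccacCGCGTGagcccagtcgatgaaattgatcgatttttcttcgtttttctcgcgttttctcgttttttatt
epg-7: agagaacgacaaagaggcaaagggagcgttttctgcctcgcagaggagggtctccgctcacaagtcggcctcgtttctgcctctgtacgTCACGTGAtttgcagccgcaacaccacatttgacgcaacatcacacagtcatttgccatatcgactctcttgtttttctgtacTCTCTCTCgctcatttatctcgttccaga
lgg-1 distal: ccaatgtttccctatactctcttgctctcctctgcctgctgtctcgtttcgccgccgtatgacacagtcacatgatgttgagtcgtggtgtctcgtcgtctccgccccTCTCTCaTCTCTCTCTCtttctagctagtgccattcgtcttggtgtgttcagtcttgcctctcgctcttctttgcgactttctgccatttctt
lgg-1 proximal: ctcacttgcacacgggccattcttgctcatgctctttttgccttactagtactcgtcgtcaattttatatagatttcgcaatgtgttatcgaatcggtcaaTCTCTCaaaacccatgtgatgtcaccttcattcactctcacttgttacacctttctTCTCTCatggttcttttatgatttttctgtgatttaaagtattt
vha-12: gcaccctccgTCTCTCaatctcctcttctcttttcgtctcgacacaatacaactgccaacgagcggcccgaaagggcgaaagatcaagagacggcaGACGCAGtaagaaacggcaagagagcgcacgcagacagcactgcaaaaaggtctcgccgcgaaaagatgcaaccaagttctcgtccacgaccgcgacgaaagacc
epg-5: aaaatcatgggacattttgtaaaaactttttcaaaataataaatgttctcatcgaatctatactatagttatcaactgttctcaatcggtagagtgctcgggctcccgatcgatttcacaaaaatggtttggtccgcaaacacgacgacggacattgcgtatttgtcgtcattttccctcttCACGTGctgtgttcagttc
vha-15: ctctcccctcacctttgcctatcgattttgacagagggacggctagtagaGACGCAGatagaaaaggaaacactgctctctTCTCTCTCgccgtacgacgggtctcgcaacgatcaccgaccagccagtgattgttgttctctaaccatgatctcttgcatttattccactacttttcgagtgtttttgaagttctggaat
The stretches lie at chrIV:10936112-10936312 for lgg-2, chrV:349149-349349 for atg-9, chrX:7334482-7334682 for epg-7, chrII:6348456-6348656 and chrII:6347729-6347929 for the distal and proximal regions of lgg-1, chrX:4190660-4190860 for vha-12, chrII:6609566-6609766 for epg-5 and chrX:2237563-2237763 for vha-15. Only atg-9, epg-7 and epg-5 show an E-box here. All 6 IDR regions show GAGAGA on at least 1 strand.

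The worm has a pair of Atg8 proteins, the ubiquitin-like proteins that are attached to lipid on the growing membrane, and the promoters of both were in the IDR list. The highest signal of any member was at lgg-2, which encodes the LC3-like one. Its region, chrIV:10936030-10936393, ranked 93 in the pooled list with a signal of 92.7, with the summit 309 bp upstream of the 5′ end. In replicate 1 the same site ranked 214 with a signal of 17.3, and in replicate 2 it ranked 79 with a signal of 76.2. Both replicates therefore placed it near the top of their lists, with summits 14 bp and 32 bp from the pooled summit. A second IDR region of lgg-2, with a signal of 46.5, lay outside the window in an intron, 399 bp downstream of the 5′ end.

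lgg-1, the GABARAP-like Atg8 protein, was the only member with 2 IDR regions in its window. The distal one, 837 bp upstream at chrII:6348374-6348737, had a pooled signal of 50.2 at rank 338. The proximal one, 110 bp upstream at chrII:6347647-6348010, had a pooled signal of 27.7 at rank 905, close to the lower end of the IDR list at 25.9. Both replicates put the distal region above the proximal one, by different margins. In replicate 1 the distal region ranked 125 with a signal of 22.0 and the proximal one 4467 with a signal of 4.29. In replicate 2 they ranked 734 and 773 with signals of 24.6 and 23.8. The distal region was thus far the higher of the pair in replicate 1 and about level with the proximal one in replicate 2.

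Of the other 9 genes of the conjugation systems that carry Atg8 and Atg12 onto their targets, atg-16.1 was the only one among the 5000 highest regions, with a pooled signal of 17.3 at rank 2010. ATG-16 proteins hold the complex that places Atg8 on the membrane. The atg-16.1 region ranked 1264 in replicate 2 and had no overlapping region in replicate 1. Its paralogue atg-16.2 had a pooled signal of 10.8 at rank 5660, with a region in both replicates, of signal 5.16 in replicate 1 and 10.4 in replicate 2. The Atg8 proteases atg-4.1 and atg-4.2, and atg-5, atg-10 and lgg-3 (the worm Atg12) had no region in any list. The E1-like atg-7 had a summit in replicate 1 alone, of signal 2.51, and the E2-like atg-3 in replicate 2 alone, of signal 5.53. The highest signals among the conjugation genes were thus at the Atg8 genes themselves. Of the 9 others, 8 had a signal below the 5000 highest regions or none, which is near the share of all genes, where 10.2% had a summit of these regions. With windows set at the 5′ end of any transcript, atg-3 had one too.

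Initiation of autophagy rests on the UNC-51 (ULK1) kinase complex, and epg-7, a scaffold protein related to mammalian FIP200, was the only one of its 4 genes in the IDR list. The epg-7 region, chrX:7334400-7334763, had a pooled signal of 61.4 at rank 233, with its summit 132 bp upstream. It ranked 265 in replicate 1 with a signal of 15.8 and 222 in replicate 2 with a signal of 47.5, so the replicates gave it nearly the same rank. unc-51, atg-13 and epg-9 (the worm Atg101) had pooled summits in their windows, with highest signals of 5.02, 5.94 and 6.48, near the low end of the list at 4.82, and none was called there in replicate 1. Further IDR regions lay beyond the windows of 2 of these. One with a signal of 91.4, at rank 95, was in an intron of epg-9, 1045 bp downstream of its 5′ end, and it held CACGTG within 100 bp of its summit. Others lay 1299 bp upstream of epg-9, with a signal of 36.5, and 1410 bp upstream of unc-51, with a signal of 49.1. A window of fixed size therefore leaves out strong regions at both genes.

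atg-9 encodes the transmembrane protein of the vesicles that seed the autophagosome. Its region, chrV:349067-349430, had a pooled signal of 63.0 at rank 221, with the summit 136 bp upstream. The pooled list and both replicates put the summit on the same base. The ranks were less alike, at 1146 in replicate 1, with a signal of 7.45, and 170 in replicate 2, with a signal of 54.1. Replicate 1 alone would leave it outside its 1015 highest regions. atg-2, whose product moves lipid into the growing membrane, had a pooled signal of 14.9 at rank 2657, with the summit inside its own 5′ UTR, 88 bp downstream of the 5′ end. Summits lay there in both replicates, of signal 3.97 and 11.1. epg-4, a membrane protein of the endoplasmic reticulum, had a signal of 8.75 at a summit in a coding exon of the neighbouring ndab-2. epg-3, the worm VMP1, had no region in any list.

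Among the 4 genes of nucleation and phosphoinositide binding, none was in the IDR list and 2 were among the 5000 highest regions. epg-8, the Atg14-like subunit of the lipid kinase complex, had a pooled signal of 18.6 at rank 1781, with a replicate 2 signal of 14.9 and no replicate 1 region. atg-18, a phosphoinositide-binding protein of the WIPI family, had a pooled signal of 13.5 at rank 3259 and was listed in both replicates, at 5.61 and 8.79. bec-1, the worm Beclin, had a pooled signal of 8.47 at rank 10333. Its summits in the replicates lay apart, at 54 bp downstream in replicate 1, with a signal of 2.07, and 274 bp upstream in replicate 2, with a signal of 6.19. epg-6, also of the WIPI family, had no region in any list.

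The main regions of the cargo and fusion genes were listed in replicate 2 only. sqst-1, the p62 receptor that brings ubiquitinated cargo to the autophagosome, had a pooled signal of 17.2 at rank 2045, with the summit 117 bp upstream. epg-5, which tethers autophagosomes to late endosomes and lysosomes, had 16.5 at rank 2203, with the summit 301 bp upstream. Replicate 2 placed them at ranks 1543 and 1355, and replicate 1 had no summit in either window. A second, weak pooled region of epg-5, of signal 6.88 at rank 16491, overlapped a replicate 1 region of signal 3.29. epg-2, a nematode adaptor for the breakdown of germ granule proteins, had no region in any list. IDR regions farther off lay 1780 bp upstream of sqst-1 and 3391 bp upstream of epg-5, and the one upstream of sqst-1 was nearest to mrpl-51. Within 5000 bp upstream, IDR regions nearest to another gene also lay by atg-7 (28.3, nearest to klc-1), vha-13 (33.8, nearest to cept-2) and asp-14 (33.0, nearest to fah-1), where the values are IDR signals.

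A larger share of V-ATPase genes than of autophagy genes had a summit of the 5000 highest regions, and their highest pooled signals were lower. In the V1 sector, 6 of 9 genes had a summit of the 5000 highest regions, and in the V0 sector 5 of 9. The accessory genes vha-19 and vha-20 had none, with pooled signals of 6.06 and 7.54. The range of the highest signal in a window was 6.06 to 29.6 over the 15 V-ATPase genes with a pooled region, and 5.02 to 92.7 over the 16 autophagy genes with one. In the pooled list the best V-ATPase gene was therefore below all 4 autophagy genes of the IDR list. In replicate 1, vha-12 at 9.40 and vha-9 at 7.61 were above atg-9 at 7.45.

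Within V1, the catalytic core is made of A and B subunits. vha-12, the B subunit, had the IDR region at chrX:4190578-4190941, with a pooled signal of 29.6 at rank 820 and the summit 334 bp upstream. It ranked 696 in replicate 1 with a signal of 9.40 and 1398 in replicate 2 with a signal of 17.1. Replicate 2 alone would leave it outside its 1015 highest regions. vha-13, the A subunit, had a pooled signal of 23.4 at rank 1213, the highest of any member outside the IDR list, with its summit 583 bp upstream in the 3′ UTR of cept-2. Its region ranked 1951 in replicate 2 with a signal of 14.3 and 10265 in replicate 1 with a signal of 2.79, where the summit was 205 bp away. Between the last member inside the list, the proximal lgg-1 region at 27.7, and vha-13 outside it, the list itself ended at 25.9.

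The stalk subunits of V1 came next. vha-9, the F subunit, had a pooled signal of 22.3 at rank 1311, 7.61 in replicate 1 at rank 1085 and 15.2 in replicate 2 at rank 1709. Both replicates placed its summit within 22 bp of the pooled one. vha-8, the E subunit, had a pooled signal of 19.3 at rank 1698 with signals of 5.65 and 14.7 in the replicates, and its region also lies in the window of C17H12.2, which is nearer. vha-15, an H subunit, had 14.4 with 2.96 and 8.56, and vha-10, the G subunit, had 11.5 with 2.36 and 8.59. The C subunit gene vha-11 had a pooled signal of 7.77 from a summit in a coding exon of vha-3. vha-14 (subunit D) and vha-18 (a second H subunit) had no region in any list.

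In V0, the proton is carried by a ring of c subunits against an a subunit. vha-1, a c subunit, had the highest pooled signal, 22.2 at rank 1326, 450 bp upstream. The site is equally far from the 5′ end of sqv-3 and lies in the window of that gene too. vha-1 had a signal of 2.77 in replicate 1 at rank 10381 and of 14.8 in replicate 2 at rank 1802. Its neighbour vha-2, which starts 400 bp beyond the end of vha-1 on the same strand, had its only pooled summit in a coding exon of vha-1, with a signal of 7.21. vha-16, the d subunit, had 19.4 at rank 1680 with the summit 65 bp upstream and signals of 4.15 and 15.6 in the replicates. Of the a subunits in the set, vha-6, the intestinal form, had 16.9 and vha-5, a form of the excretory canal and skin, had 13.9, while vha-7 had no region in any list. The region of vha-6 had no overlap in replicate 1. vha-17, the e subunit, had 12.2, with a replicate 1 signal of 4.92 at rank 3275 and a replicate 2 signal of 5.01 at rank 20990, and shared its region with the window of F49C12.12. vha-4 had no region in any list, and vha-3 had one in replicate 1 alone.

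The proteases were the weakest subgroup. The aspartyl protease genes, related to cathepsin D, had pooled signals of 6.08 to 10.7 at the 7 with a pooled summit. The top value, at rank 5853, was 1 region counted for both asp-6 and asp-12, divergent genes 272 bp apart, with its summit in the 5′ UTR of asp-12 and a replicate 2 signal of 8.45. asp-17 followed with 9.84 at rank 7117 and a replicate 2 signal of 6.84. asp-9 had 8.42 at rank 10464 and a replicate 2 signal of 5.18, and asp-5 had 8.37. No region of replicate 1 overlapped any of these 4 regions. The single replicate 1 summit among these 7 genes was at asp-12, 505 bp upstream, where replicate 2 had none. asp-8 and asp-1 had 7.62 and 6.08. cpl-1, the worm cathepsin L, and asp-14, asp-15, asp-16, asp-18 and asp-19 had no region in any list. The remaining 5 were in 1 replicate list only, asp-2 and asp-13 in replicate 1 and asp-3, asp-4 and asp-7 in replicate 2. asp-3 and asp-4, the cathepsin D-like proteases of worm lysosomes, had replicate 2 signals of 4.36 and 6.55. Of the 18 protease genes, 14 lie on chromosome V, where 8.01% of genes had a summit of the 5000 highest regions, and several are neighbours, so they are not independent observations of the subgroup.

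Each replicate list was also read alone. Replicate 1 had a summit in the windows of 10 of 26 autophagy genes, 11 of 20 V-ATPase genes and 3 of 18 proteases, beside 21.7% of all genes. Replicate 2 had one in 17 of 26, 15 of 20 and 10 of 18, beside 38.1% of all genes. Both had one in 9, 10 and 1, beside 12.4% of all genes, though not always at the same site. When regions of the replicates had to overlap each other, the counts were 8, 10 and 0, beside 9.82% of all genes. Among the 21 members with a summit of the 5000 highest pooled regions, the region overlapped both replicate lists at 16 and replicate 2 alone at the other 5, which were epg-8, atg-16.1, sqst-1, epg-5 and vha-6. By subgroup, 6 of the 10 autophagy genes and 10 of the 11 V-ATPase genes had both. Over all 1775 of the 5000 highest regions that lie in promoter windows, 62.9% overlapped both. Summits of both replicates lay within 100 bp of the pooled summit at 12 of the 21. Taking the 5000 highest regions of 1 replicate in place of the pooled ones gave 17 members for replicate 2 and 13 for replicate 1. With replicate 2 these were 10 of 26 autophagy genes, 7 of 20 V-ATPase genes and 0 of 18 proteases, beside 10% of all genes, so the V-ATPase share was no longer above the autophagy share. With replicate 1 they were 6 of 26, 6 of 20 and 1 of 18, beside 8.63% of all genes.

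**Figure D3:**
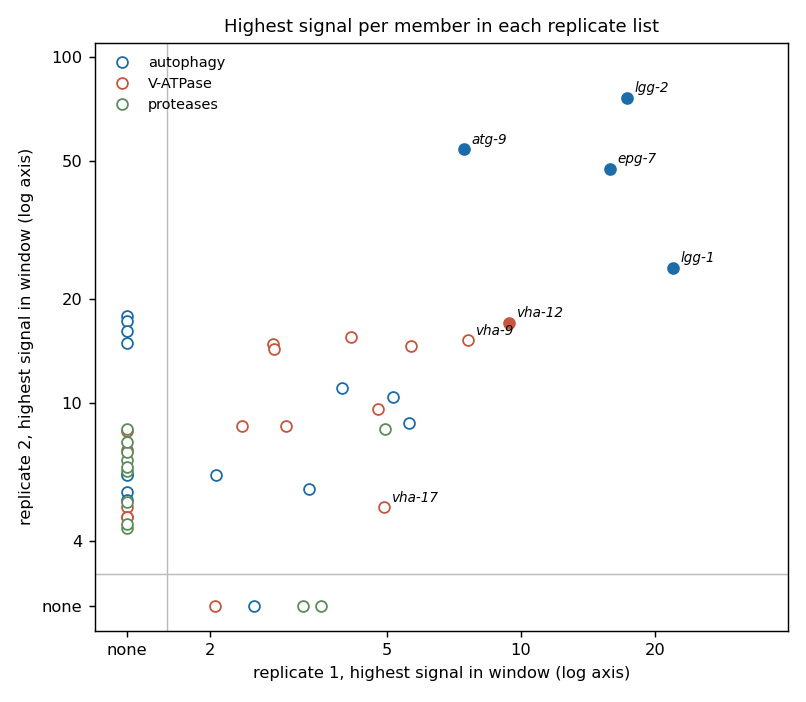
Highest signal in the promoter window of each member in replicate 1 (horizontal) and replicate 2 (vertical), both log axes; points past the grey lines, marked none, have no summit in that replicate, filled points have an IDR summit, and genes absent from both lists are left out. The 5 genes with an IDR summit lie at the upper right, from 7.45 to 22.0 in replicate 1 and from 17.1 to 76.2 in replicate 2.

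Most summits were upstream of the gene. Of the 21 members with a summit of the 5000 highest regions, 20 had the highest one upstream of the annotated 5′ end, and at 17 it was within 500 bp upstream. The distance from the 5′ end ran from 65 to 837 bp with a median of 293 bp. The summit was intergenic at 18 of the 21. Messages of most worm genes are trans-spliced, so an annotated 5′ end can lie downstream of the true start of transcription. Of the regions themselves, 3 are also in the window of a gene outside the set, those of vha-1, vha-8 and vha-17. By chromosome, 2 of the 9 members on X were in the IDR list, epg-7 and vha-12, where 4.03% of the 2731 genes of X were.

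**Figure D4:**
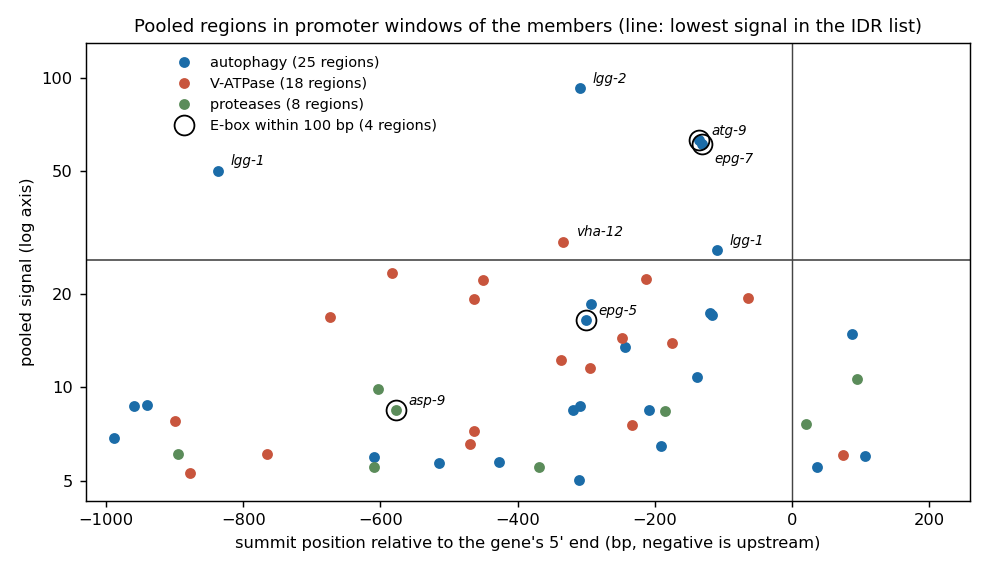
Pooled signal (log axis) against the position of the summit relative to the annotated 5′ end (bp, negative is upstream) for the 51 pooled regions in members' windows, coloured by subgroup; a region in the windows of both asp-6 and asp-12 is placed by asp-12. The horizontal line is the lowest signal of the IDR list, and rings mark the 4 regions with an E-box within 100 bp, of which atg-9 and epg-7 lie above the line and epg-5 and asp-9 below it.

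E-boxes were in the windows of these genes, taken as a whole, at about the share of all genes. CACGTG occurred in the windows of 12 of the 64 genes, beside 18.4% of all genes. By subgroup it was in 7 of 26 autophagy genes, 3 of 20 V-ATPase genes and 2 of 18 proteases. The 7 were atg-3, atg-9, atg-13, epg-2, epg-5, epg-7 and sqst-1, so that all 3 cargo and fusion genes had one. Within 100 bp of a pooled summit it was found at 4 members, beside 2.63% of all genes. Members had a pooled summit more often than all genes did. Counted by region, CACGTG was at 4 of the 51 pooled regions in members' windows (7.84%), near the 6.06% of the 7774 in all promoter windows. The match was centred 7.5 bp from the summit at epg-7, 28.5 bp at atg-9, 76.5 bp at asp-9 and 84.5 bp at epg-5. At the other 8 genes the nearest pooled summit was over 200 bp away, or there was none nearby. At the windows of vha-3, vha-4 and vha-19, the V-ATPase genes that hold CACGTG, no region was among the 5000 highest. A pooled region of rank 2164 lay past the upstream edge of the vha-3 window, 402.5 bp from the nearer match. Windows reaching 2000 bp upstream therefore add vha-3 to that class.

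TCACGTGA, the E-box with the flanks written out, was in the windows of atg-3, atg-13 and epg-7, and of no other member, beside 1.89% of all genes. At epg-7 it is the match in capitals in the sequence above, 7.5 bp from the summit of a region at rank 233. At atg-13 the match was 214.5 bp from a pooled summit of rank 21709, and at atg-3 no pooled summit was in the window. The same letters thus stood near a strong region at 1 of the 3 genes.

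The motifs at the stronger regions were counted by subgroup. Among the 5000 highest regions, CACGTG lay within 100 bp of the summit in 3 of 11 regions of autophagy genes and in 0 of 11 of V-ATPase genes, beside 13.5% of the 1775 such regions of all promoter windows. CTGCGTC was in 0 of 11 and in 2 of 11, those of vha-12 and vha-15, beside 13.7%. GAGAGA was in 7 of 11 in each, beside 35.5%. All 6 IDR regions held it, beside 53.8% of the 422 IDR regions in promoter windows. GAGAGA is a simple repeat found in 50.9% of all promoter windows, which at 1201 bases are longer than the stretches counted here. Within 100 bp of the summit it was in 18.5% of the 7774 pooled regions in promoter windows. CACGCG was in 1 of 11 in each, at atg-9 and vha-6, beside 9.13%. The median GC content of the 201 bases was 39.3% in the autophagy regions, 40.8% in the V-ATPase regions and 39.8% in all 1775. Numbers this small describe these genes only, and a match is not evidence that the tagged factor touches it.

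A longer run was read by eye in the windows of atg-9, atg-16.1 and vha-8 and then searched in all windows, so it was chosen for these genes and its counts are a description. It is TGCAAAC, any base, and CGCTCTAT, searched on both strands and printed in capitals with 6 bases to either side.
atg-9: tgcaaaTGCAAACGCGCTCTATtgaaca
atg-16.1: aaaaaaTGCAAACGCGCTCTATtgacaa
vha-8: actaaaTGCAAACACGCTCTATagacaa
vha-14: aagactTGCAAACTCGCTCTATtgaaaa
These runs lie at chrV:349246-349273 for atg-9, chrX:4462587-4462614 for atg-16.1, chrIV:6790587-6790614 for vha-8 and chrIII:9507954-9507981 for vha-14. They are given on the minus strand of the assembly for atg-9 and atg-16.1 and on the plus strand for vha-8 and vha-14. Only 16 of the 19973 promoter windows hold the run, and 4 of these are members. One of the other 12 is the window of C17H12.2, which overlaps that of vha-8. At atg-9, atg-16.1 and vha-8 the centre of the run was 10.5, 16.5 and 9.5 bp from the pooled summit. At vha-14 the run was 133 bp upstream of the gene, with no region in any list. Of the 7774 pooled regions in promoter windows 5 held the run within 100 bp of the summit, and 4 of those were among the 5000 highest. The regions of atg-9, atg-16.1 and vha-8, where the run was first read, are among these 4. The stretches read were centred on summits of high regions, so rank and nearness to a summit were largely fixed in advance.

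A list of 64 other genes was read beside the members. It covers lysosome function, the TOR pathway, vesicle fusion and mitophagy (autophagy of mitochondria), and also holds hlh-30, vps-34 and vps-15. Of the 64 genes, 6 had an IDR summit, 14 a summit of the 5000 highest regions and 30 a pooled summit, beside 2.52%, 10.2% and 38.2% of all genes. The 6 fell to 1 with the 1015 highest regions of replicate 2 in place of the IDR list, to 3 with those of replicate 1, and to 1 with the IDR regions above the median signal of that list, where 1.29% of all genes remained. The highest was rab-7, the small GTPase of late endosomes, with a pooled signal of 64.9 at rank 206, 798 bp upstream, with CACGTG within 100 bp of the summit. lmp-1, a lysosomal membrane glycoprotein, had 29.6, and unc-32, a V0 a subunit with a name outside the vha- series, had 28.0. cpr-4, a cathepsin B-like protease, had 27.7, rheb-1, the GTPase that activates TOR, had 27.2, and dct-1, a mitophagy receptor, had 26.4. hlh-30 itself had a pooled signal of 15.8 at rank 2400, below the IDR list. With unc-32 counted, which the choice by symbol leaves out, 2 V-ATPase genes had an IDR summit, beside 2.52% of all genes. They were the a subunit of V0 at 28.0 and the B subunit of V1 at 29.6, near the lower end of that list at 25.9. With the IDR regions above the median signal, 0 of the 20 V-ATPase members had a summit, beside 1.29% of all genes.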

How the data were processed

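Regions called from ChIP-seq of 1 group with 2 biological replicates were analysed from the ce11 lists. Per the deposited file descriptions, the authors made each replicate list from that replicate and a control alignment, the pooled list from both, and the IDR list from these. Not given in the sources used here were the aligner, the peak caller, the IDR threshold and the read depth, and no interval could be set on a signal. Column 7 of the deposited lists is treated as a score of the authors' caller with no stated scale. Column 9 of the deposited lists is a −log10 q-value and was used only to describe them. All coordinates lay within the WBcel235 chromosomes. Genes came from Ensembl release 115 and sequence from RefSeq, and coordinates are 1-based. Windows and motif searches were run with Python 3.11.15 and checked on simulated data. Motifs were counted within 100 bp of summits. Members, lists and alternatives were chosen with earlier results of these data known. The text names every member, with rank and replicate values for those with an IDR summit, those with CACGTG within 100 bp of a pooled summit, and the 4 of highest pooled signal in each subgroup. No test was made, since there is 1 group. The ce10 lists were not used here.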

Additional observations from a re-analysis of the deposited data

How the results depend on the processing

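No paired analysis was possible because there is 1 group and no comparison between groups of samples. Of 29 alternatives tried on the 5 totals over the set, 25 stayed within 1.5 times the main count. The count of members with an IDR summit went from 5 to 9, beside 3.57% of all genes, with windows reaching 2000 bp upstream, which added atg-7, epg-9, sqst-1 and unc-51. The count with a pooled summit went from 38 to 21 when the list was cut to its 5000 highest regions. The count of pooled regions with CACGTG went from 4 to 2 within 50 bp of the summit. With the highest regions of 1 replicate in place of the pooled ones, the count of members with an IDR summit was 4 to 4, replicate 2 alone losing vha-12 and replicate 1 alone losing atg-9. On the same basis the count with a summit of the 5000 highest regions ran from 13 to 17, the autophagy genes in it from 6 to 10 and the V-ATPase genes from 6 to 7. When regions had to overlap both replicates, 6 of the 10 autophagy genes were left in that class. The share of all genes in it also fell, from 10.2% to 6.41%. With the 2500 highest regions, the V-ATPase count was 7 of 20, beside 6.06% of all genes. The alternatives to the class of the 5000 highest regions were chosen after seeing the data. Read depth is unknown, the signal has no stated scale, and a gene without a listed region is not shown to be unbound.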
